A study of Mus musculus with 6 samples.

Results

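The NADPH oxidase subunits are the 8 genes Nox4, Cybb, Cyba, Ncf1, Ncf4, Rac1, Rac2 and Duox1, taken by name from a deposited table of 54532 genes measured by RNA-sequencing of mouse kidneys. They were chosen by what their proteins do, as parts or partners of membrane enzymes that make superoxide or peroxide. No rule on their measured values was used, but earlier results of these data were known. Each gene had at least 1 count in some sample, and 7 of them had enough counts to be tested; Duox1 did not. The kidneys came from 3 WT mice, numbered 1 to 3, and 3 Trpm2-/- mice, numbered 1, 2 and 4, and all of them had been given cisplatin, a platinum drug that injures kidney tubules, at 18 mg/kg for 72 h. Untreated kidneys were not analysed here, so every comparison here is between genotypes under the drug. The labels give the strain C57BL/6J and an age of 6 to 8 weeks for both genotypes (the methods state an older age). The Trpm2-/- mice carry a deletion of exons in Trpm2, the gene of a calcium-permeable cation channel, which according to the methods leaves a protein without part of its transmembrane domains, and they came from another source than the WT mice. A kidney holds many cell types, so fewer cells of one type and less RNA in each cell cannot be told apart.

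NADPH oxidases pass electrons from NADPH across a membrane to oxygen. In the phagocyte enzyme the catalytic subunit Cybb (also called NOX2) is bound to Cyba (p22phox), and it works only once cytosolic proteins, Ncf1 and Ncf4 among them, and a Rac GTPase have joined it. Nox4, the catalytic subunit known for its high level in kidney tubules, also needs Cyba but is active without the cytosolic proteins, and releases mostly hydrogen peroxide. Duox1 is a dual oxidase that needs its own maturation factor. Peroxide is one of the signals known to open the TRPM2 channel.

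The total number of reads on genes was between 14053307 and 17150089 in the 6 libraries, and a floor of 3 counts was 0.175 to 0.213 CPM (reads on a gene brought to a common library total, here adjusted between libraries by the TMM method), which covers counting error only. Trpm2 had 5, 5 and 27 counts in the WT mice and 10, 16 and 20 counts in the Trpm2-/- mice. That count includes the exons kept in the allele and does not check the genotype labels. Trpm2-/- mouse 4 stood apart in podocyte, endothelial, and fibroblast and pericyte markers, and WT mouse 1 in urothelial markers. The summed level of the 4 podocyte markers was 478 CPM in Trpm2-/- mouse 4 and 125 to 167 CPM in the other 5 mice. That of the 6 endothelial markers was 208 CPM against 46.3 to 87.7 CPM. For the 7 fibroblast and pericyte markers it was 187 CPM against 70.9 to 102 CPM. The summed level of the 6 urothelial markers was 57.4 CPM in WT mouse 1 and 6.73 to 15.1 CPM in the other 5 mice. Calls and fold changes of the subunits and of the other oxidase genes named, Trio and Prkcz were also computed without these 2 mice. The labels number the libraries without saying that each is a separate animal, so p-values measure the spread between these samples, which may be technical in part.

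Sequence upstream of the start site is shown for Cyba and Cybb, since their proteins form one heterodimer while their levels were the farthest apart among the subunits with more than 1 read. Both windows are the 250 bases before the start site in RefSeq on GRCm38.p6, read 5′ to 3′ along the minus strand, and capitals mark the letters GGGCGG, a box that the factor Sp1 is known to bind. The Cyba window is chr8:122432941-122433190 and the Cybb window is chrX:9469325-9469574. The Cyba window lies just outside the GENCODE span of its gene, but the Cybb window lies inside that of Cybb, chrX:9435252-9487771. For Cybb the RefSeq start therefore differs from the GENCODE gene end, and which start is used in these kidneys was not tested.
Cyba: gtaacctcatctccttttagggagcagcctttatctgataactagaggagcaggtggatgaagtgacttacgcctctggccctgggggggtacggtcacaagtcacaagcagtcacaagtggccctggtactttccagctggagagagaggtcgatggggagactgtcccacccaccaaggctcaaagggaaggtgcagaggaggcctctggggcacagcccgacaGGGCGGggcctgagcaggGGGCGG
Cybb: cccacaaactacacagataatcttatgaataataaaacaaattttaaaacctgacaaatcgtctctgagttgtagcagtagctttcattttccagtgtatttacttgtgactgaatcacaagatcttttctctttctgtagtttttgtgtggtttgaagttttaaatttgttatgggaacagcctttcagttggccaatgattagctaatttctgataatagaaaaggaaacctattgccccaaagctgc
In the Cyba window, G and C made up 60.0% of the bases and GGGCGG occurred 2 times, its first base 24 and 6 bases before the start site. In the Cybb window G and C made up 34.0% and GGGCGG did not occur. Both strands were searched, and 32.7% of the 32851 mouse promoter windows of this length held GGGCGG. The median share of G and C over those windows was 52.4%. RefSeq windows were matched for 5 of the 8 genes, and the windows of Nox4 and Ncf1 held GGGCGG as well, while that of Duox1 did not. The letters GAGGAA, a form that the myeloid factor PU.1 can bind, occurred in 23.3% of all windows and in none of the 5. Shorter letters such as GGAA were not searched, and both windows shown hold them, so a lack of PU.1 letters is not shown. These are matches of letters and not sites shown to be used.

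Rac1 and Rac2 encode closely related GTPases, so their coding sequences were compared in the GENCODE M21 transcripts. Over the whole coding sequence of 576 bases, without the stop codon, 444 positions (77.1%) were identical and 132 differed. The longest identical run was 29 bases, and no window of 75 bases was shared between transcripts of these GTPases.

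The 7 tested subunits did not move together between genotypes. Cyba fell in Trpm2-/- kidneys, and no subunit rose at an adjusted p under 0.05. Over all 15816 genes tested, 7.28% were called lower and 4.74% higher at this threshold, and a single lower gene of 7 is not read as a result about the group. The median log2 fold change (Trpm2-/- against WT) was 0.00 over the 7 subunits, with 3 above and 4 below 0, and 0.02 over all genes tested. At the threshold given in the methods, an absolute log2 fold change above 1 with p under 0.05, none of the 7 subunits was called, against 7.6% of all genes. At an unadjusted p under 0.05, Cyba and Rac1 passed, against 28.3% of all genes.

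The levels of the subunits spanned more than the differences between genotypes. Levels of different genes are compared here as FPKM, the authors' values in which reads are divided by gene length and library size. The authors' gene length was 8471 bases for Nox4 and 1039 bases for Cyba. Their principal GENCODE transcripts have 3753 and 744 bases, so the size of a ratio between genes depends on the length used. Cyba had the highest level, 378 ± 40.4 FPKM (SD, n = 3) in WT kidneys and 212 ± 20.6 FPKM (SD, n = 3) in Trpm2-/- kidneys, which ranked 103 and 170 among 28884 genes above 0. Rac1 was next, at 52.0 ± 4.28 FPKM and 67.1 ± 11.4 FPKM, and Nox4 followed at 8.68 ± 0.178 FPKM and 8.08 ± 2.41 FPKM (SD, n = 3 each). The ranges of these 3 genes over the 6 mice did not overlap, with 194 to 411 FPKM for Cyba, 49.5 to 79.7 FPKM for Rac1 and 6.32 to 10.8 FPKM for Nox4. Ncf1, Ncf4, Rac2 and Cybb were all below 1 FPKM in every mouse, and their ranges over the 6 mice overlapped. Within each of the 6 mice Cybb was the lowest of these 4 genes, from 0.0515 to 0.52 FPKM. Duox1 was listed at 0 in 5 mice and at 0.0102 FPKM in the sixth.

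**Figure D1:**
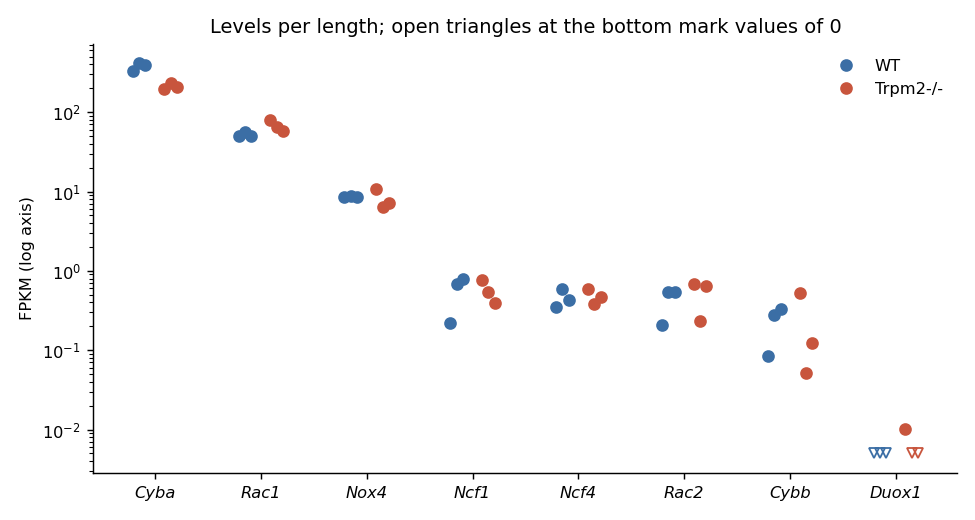
Level of each NADPH oxidase subunit in FPKM on a log axis, with 1 point per mouse (blue, 3 WT; red, 3 Trpm2-/-), genes in order of their WT mean, and open triangles at the bottom edge for values of 0. Cyba, Rac1 and Nox4 form 3 separate levels above 6 FPKM, while Ncf1, Ncf4, Rac2 and Cybb overlap below 1 FPKM and Duox1 is at 0 in 5 of 6 mice.

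Cyba (GRCm38, chr8:122424776-122432930, minus strand, 6 exons in its principal transcript) encodes the membrane partner that stabilizes the catalytic subunits. Its level was 395, 487 and 466 CPM in WT mice 1, 2 and 3 and 229, 278 and 244 CPM in Trpm2-/- mice 1, 2 and 4. Every Trpm2-/- kidney was below every WT kidney, as held for 16.8% of all genes tested, and for 16.7% in the other direction. The log2 fold change was -0.84 (SE 0.147, adjusted p = 0.00745, Benjamini-Hochberg, edgeR's quasi-likelihood test), a level of 0.557 times the WT level with a 95% interval of 0.443 to 0.7. The deposited FPKM values, 333, 411 and 391 in WT and 194, 235 and 208 in Trpm2-/- kidneys, were apart in the same way. Without WT mouse 1 and Trpm2-/- mouse 4 the log2 fold change was -0.90. Reads of Cyba lie in a region also covered by the antisense gene Gm20388, which had 0 counts in all 6 libraries, and no 75-base window of Cyba occurred in a transcript of another gene.

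Among the abundant genes of these kidneys, a lower level in Trpm2-/- mice was common. Of 381 tested genes with at least the mean CPM of Cyba, 97 (25.5%) were called lower and 18 higher, and their median log2 fold change was -0.20. A more negative log2 fold change than that of Cyba was found for 57 of these genes. By p, Cyba ranked 473 of 15816. All 8 markers of the proximal tubule, the segment with the most cells in the cortex, fell, with a median log2 fold change of -1.57. Their summed level was 2454, 2788 and 3396 CPM in the WT mice and 819, 636 and 1056 CPM in the Trpm2-/- mice. The Cyba level in percent of that sum was 16.1, 17.5 and 13.7 in the WT mice and 28.0, 43.7 and 23.1 in the Trpm2-/- mice, so Cyba differed less between genotypes than the sum of these markers did. Of the 8 markers, Lrp2 had a log2 fold change of -0.76, smaller in size than that of Cyba, and it was named after its value was seen. The summed level of the 5 injured tubule markers went the other way, from 2765 to 3290 CPM in WT to 3849 to 4862 CPM in Trpm2-/- kidneys, and 2 of them, Krt20 and Sox9, rose. Of 5 collecting duct markers 4 were tested and 2, Aqp2 and Aqp3, fell. Among the other kidney lists, Acta2 of 7 fibroblast and pericyte markers rose, Upk3a of 6 urothelial markers fell, and no podocyte or endothelial marker was called. Reads on the mitochondrial genome made up 4.43% to 4.72% of a WT library and 7.91% to 11% of a Trpm2-/- library, and with those genes left out the log2 fold change of Cyba was -0.83. The part of the tubule makeup in the Cyba result was not tested.

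**Figure D2:**
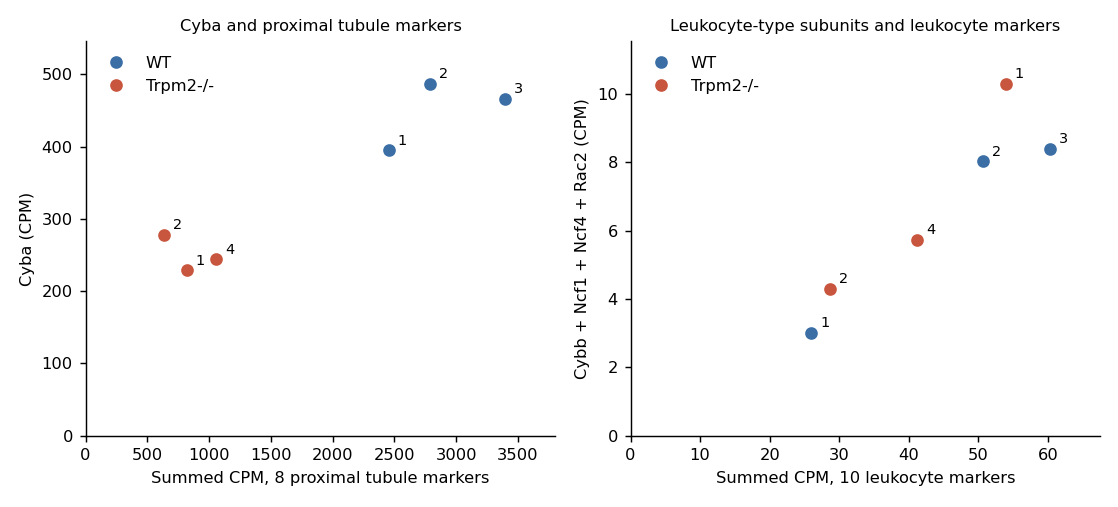
Left, Cyba (CPM) against the summed CPM of 8 proximal tubule markers; right, the summed CPM of Cybb, Ncf1, Ncf4 and Rac2 against that of 10 leukocyte markers, with 1 numbered point per mouse (blue, WT; red, Trpm2-/-) and both axes from 0. On the left the genotypes are apart on both axes, at 819, 636 and 1056 against 2454 or more for the markers; on the right they are mixed, with WT mouse 1 lowest on both axes.

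Nox4 (GRCm38, chr7:87246096-87398710, plus strand, 18 exons), the catalytic subunit of the tubule oxidase, was measured at 82.3, 85.9 and 84.0 CPM in the WT mice and at 104, 61.0 and 67.8 CPM in the Trpm2-/- mice. The WT mice were close to each other, and the Trpm2-/- mice lay on both sides of them, with mouse 1 above and mice 2 and 4 below. The SD was 1.79 CPM in WT and 23.2 CPM in Trpm2-/- kidneys (n = 3 each). The log2 fold change was -0.11 (95% interval -0.54 to 0.31, adjusted p = 0.745, Benjamini-Hochberg, edgeR's quasi-likelihood test). No difference was detected, and changes within this interval could not be seen with these mice. Without Trpm2-/- mouse 1 the log2 fold change was -0.39 (adjusted p = 0.0866, same test), and without Trpm2-/- mouse 2 it was 0.03 (adjusted p = 0.933, same test). The ratio of Cyba to Nox4, from FPKM, was 39.1, 46.3 and 45.2 in the WT mice and 17.9, 37.2 and 29.3 in the Trpm2-/- mice. Each Trpm2-/- ratio was below each WT ratio, and mouse 1, with the highest Nox4 and the lowest Cyba, had the lowest one.

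Cybb (GRCm38, chrX:9435252-9487771, minus strand, 13 exons), the catalytic subunit of the phagocyte oxidase, had few reads. Its counts were 9, 29 and 36 in the WT mice and 56, 5 and 13 in the Trpm2-/- mice, or 0.555, 1.86 and 2.21 CPM against 3.43, 0.341 and 0.809 CPM. The highest and the lowest value were both in Trpm2-/- kidneys. The log2 fold change was 0.00 with a 95% interval of -1.74 to 1.73 (adjusted p = 0.998, Benjamini-Hochberg, edgeR's quasi-likelihood test), so a change of more than 3-fold in either direction lies inside the interval, whose ends were 0.3 and 3.32 times the WT level. Leaving out Trpm2-/- mouse 1 alone moved it to -1.40 (adjusted p = 0.268), and leaving out Trpm2-/- mouse 2 to 0.46 (adjusted p = 0.71, same test). The Cyba transcript exceeded that of Cybb by 374 to 4555 times in FPKM.

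The cytosolic subunits also had few reads. Ncf1 (p47phox; GRCm38, chr5:134220053-134229625, minus strand, 11 exons), the organizer that is phosphorylated to start assembly, was at 0.925, 2.89 and 3.31 CPM in the WT mice and 3.18, 2.25 and 1.62 CPM in the Trpm2-/- mice. WT mouse 1 was lowest and the other values overlapped. The log2 fold change was -0.01 (95% interval -1.10 to 1.07, adjusted p = 0.99, Benjamini-Hochberg, edgeR's quasi-likelihood test). Ncf1 shares 4303 bases of its locus with the antisense gene Gtf2ird2, which had 102 to 173 counts against 15 to 54 for Ncf1, and 5.44% of the 75-base windows of Ncf1 also occurred in Gtf2ird2. The setting for strand in the counting is not given in the sources used here, so reads of the shared stretch cannot be told apart and the low count of Ncf1 is uncertain.

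Ncf4 (p40phox; GRCm38, chr15:78244801-78262580, plus strand, 10 exons), a subunit that binds a phosphoinositide of the phagosome membrane, was at 0.802, 1.35 and 0.982 CPM in the WT mice and 1.35, 0.888 and 1.06 CPM in the Trpm2-/- mice. These ranges overlapped almost fully. Its log2 fold change was 0.08 (95% interval -0.85 to 1.00, adjusted p = 0.93, Benjamini-Hochberg, edgeR's quasi-likelihood test).

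Rac1 (GRCm38, chr5:143503634-143528036, minus strand, 6 exons), the GTPase found in most cells, was at 254, 293 and 256 CPM in the WT mice and 407, 329 and 291 CPM in the Trpm2-/- mice. Trpm2-/- mice 1 and 2 were above all WT mice, and Trpm2-/- mouse 4 was just below WT mouse 2. The log2 fold change was 0.36 (SE 0.158, 95% interval 0.00 to 0.71) with an unadjusted p of 0.0485 and an adjusted p of 0.173 (Benjamini-Hochberg, edgeR's quasi-likelihood test). The difference did not pass the threshold. Without Trpm2-/- mouse 1 it was 0.21 (adjusted p = 0.384, same test). Rac1 overlaps Daglb on the other strand by 2309 bases, and 49.7% of its 75-base windows also occurred in Daglb. Daglb had 100 to 170 counts in a library, a second antisense gene, Gm42502, had 0 to 8 and Rac1 had 4117 to 6648, and how reads of the overlap were assigned is not given in the sources used here.

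Rac2 (GRCm38, chr15:78559167-78572783, minus strand, 7 exons), the GTPase of blood cells, was at 0.74, 1.93 and 1.9 CPM in the WT mice and 2.39, 0.819 and 2.24 CPM in the Trpm2-/- mice. One mouse of each genotype was low, WT mouse 1 and Trpm2-/- mouse 2. The log2 fold change was 0.26 (95% interval -0.90 to 1.41, adjusted p = 0.788, Benjamini-Hochberg, edgeR's quasi-likelihood test). The ratio of Rac1 to Rac2, in FPKM, was 89.7 to 277 over the 6 mice and overlapped between genotypes. Duox1 (GRCm38, chr2:122315672-122347972, plus strand, 33 exons), known from airway and thyroid epithelium, had 1 read in Trpm2-/- mouse 1 and 0 in the other 5 libraries. Both genotypes were under the floor of 3 counts, so no fold change is given.

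**Figure D3:**
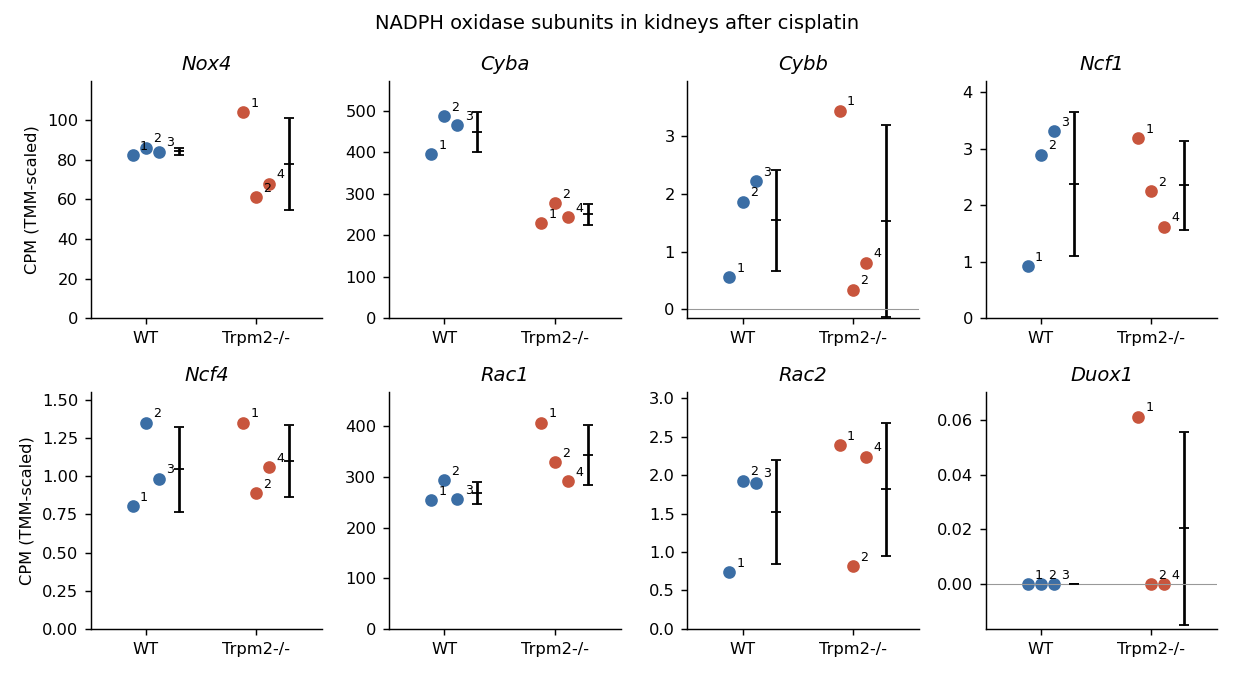
TMM-scaled CPM of the 8 subunits in each mouse (numbered points, blue for WT and red for Trpm2-/-), with the mean and SD of 3 mice beside the points; each panel has its own linear axis. Cyba is the panel where the genotypes do not overlap, at 395 to 487 CPM against 229 to 278 CPM; the Trpm2-/- bars of Cybb and Duox1 run below 0 because the SD exceeds the mean.

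The 4 subunits known from leukocytes overlapped between genotypes when summed. The counts of Cybb, Ncf1, Ncf4 and Rac2 together were 49, 125 and 137 in the WT mice and 169, 63 and 92 in the Trpm2-/- mice. Their summed level was 3.02, 8.03 and 8.4 CPM in the WT mice and 10.3, 4.3 and 5.73 CPM in the Trpm2-/- mice, so WT mouse 1 and Trpm2-/- mouse 2 were lowest and Trpm2-/- mouse 1 highest. The summed level of 10 leukocyte markers was 26.0, 50.6 and 60.3 CPM in the WT mice and 53.9, 28.7 and 41.2 CPM in the Trpm2-/- mice, with the same mice lowest. As a share of these markers the 4 subunits were at 11.6%, 15.9% and 13.9% in the WT mice and 19.2%, 15.0% and 13.9% in the Trpm2-/- mice, and the genotypes overlapped.

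None of the 10 leukocyte markers was called in either direction, and 10 of 10 were tested. Of the 10 macrophage markers 2, C1qa and C1qc of complement component C1q, fell, while the summed macrophage level overlapped at 153 to 191 CPM in WT and 152 to 211 CPM in Trpm2-/- kidneys. For both genes WT mouse 1, at 4.93 and 2.9 CPM, lay within the Trpm2-/- range. Much of the sum was Cd68 and Cd14, and Cd14 had a log2 fold change of 0.82 (adjusted p = 0.0718, Benjamini-Hochberg, edgeR's quasi-likelihood test). Of the 10, 3 had a log2 fold change above 0 and 7 below. Of 10 neutrophil markers 5 were tested and none was called. Their summed level was 3.27 to 14.1 CPM in WT and 7.31 to 13.3 CPM in Trpm2-/- kidneys, and Mpo had 0 counts in every library. Csf3r was closest to the threshold, at 0.308, 1.41 and 1.17 CPM in the WT mice and 3.18, 2.18 and 4.79 CPM in the Trpm2-/- mice. Its log2 fold change was 1.81 (adjusted p = 0.0549, Benjamini-Hochberg, edgeR's quasi-likelihood test). Of the 5 tested, 2 had a log2 fold change above 0 and 3 below. The 8 T and NK cell markers summed to 0.428 to 3.35 CPM over the 6 mice and none could be tested. The 5 B cell markers summed to 0.9 to 2.65 CPM. The part of leukocyte content in the spread of these subunits was not tested.

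Of the other oxidase subunits and maturation factors, 15 genes, 9 were tested and none was called, with a median log2 fold change of 0.11. Nox1, Nox3, Noxa1, Duox2, Duoxa1 and Duoxa2 had 0 to 6 counts in any library and were not tested. Nox3, the oxidase of the inner ear, had its 6 counts in Trpm2-/- mouse 4 and 0 elsewhere. Noxo1, the organizer used by Nox1, was at 1.67, 0.707 and 1.17 CPM in the WT mice and 1.59, 2.46 and 1.87 CPM in the Trpm2-/- mice, with a log2 fold change of 0.73 (adjusted p = 0.289, Benjamini-Hochberg, edgeR's quasi-likelihood test).

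Poldip2, a protein that binds Cyba and raises Nox4 activity, was closest to the threshold in this list. Its level was 95.8, 94.8 and 101 CPM in the WT mice and 75.4, 77.4 and 64.8 CPM in the Trpm2-/- mice. Every Trpm2-/- kidney was below every WT kidney, as held for 16.8% of all genes tested and, in this list, also for Rap1a. The log2 fold change of Poldip2 was -0.42 (SE 0.124, adjusted p = 0.0553, Benjamini-Hochberg, edgeR's quasi-likelihood test). With the DESeq2 Wald test the adjusted p of Poldip2 was 0.0464, the one alternative of 19 in which it passed. Over the 19 it ran from 0.0464 to 0.344. Cybc1, the chaperone of the Cybb and Cyba dimer, was at 26.0 to 36.9 CPM over the 6 mice with a log2 fold change of 0.11, and no difference was detected for this gene (95% interval -0.25 to 0.46). Hvcn1, a proton channel that balances the charge moved by the phagocyte oxidase, was at 1.17, 2.06 and 0.859 CPM against 3.98, 2.53 and 1.43 CPM, with a log2 fold change of 0.96 (adjusted p = 0.23, same test). Sh3pxd2b, an organizer of podosomes, had a log2 fold change of 0.72 (adjusted p = 0.16, same test) and its relative Sh3pxd2a one of 0.02 (adjusted p = 0.97, same test). The GTPases Rac3 and Rap1a had log2 fold changes of -0.11 and -0.10 (adjusted p = 0.826 and 0.603, same test).

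**Figure D4:**
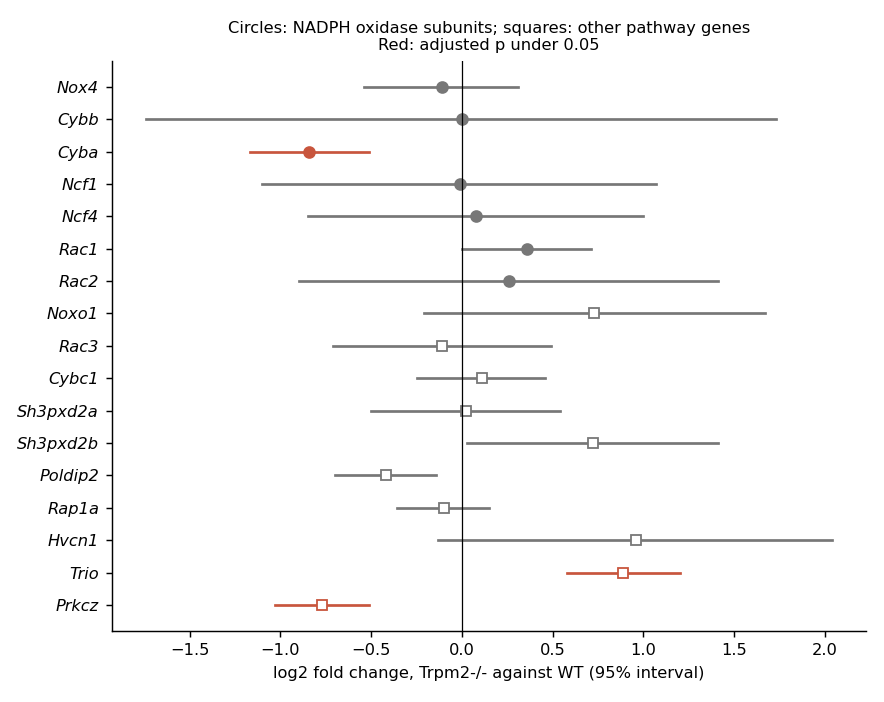
Log2 fold change (Trpm2-/- against WT) with its 95% interval for the 7 tested subunits (circles), 8 tested genes of the other oxidase list and Trio and Prkcz (squares); red marks an adjusted p under 0.05. Cyba at -0.84 is the one subunit in red, and the intervals of Cybb, Ncf1, Ncf4 and Rac2 are wide, with that of Cybb running from -1.74 to 1.73.

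Genes that control assembly were counted from 2 further lists. Of 13 activators and inhibitors of Rac, all were tested and 1, Trio, rose, with a median log2 fold change of 0.08. Trio, an exchange factor that loads Rac1 with GTP, was at 70.7, 57.5 and 60.9 CPM in the WT mice and 129, 106 and 117 CPM in the Trpm2-/- mice. The genotypes were well apart, and the log2 fold change was 0.89 (SE 0.138, adjusted p = 0.00475, Benjamini-Hochberg, edgeR's quasi-likelihood test). Of 23 kinases, lipases and receptors that act before assembly, 19 were tested and 1, Prkcz, fell, with a median log2 fold change of 0.43. Prkcz, an atypical protein kinase C, was at 58.3, 62.3 and 60.2 CPM in the WT mice and 34.8, 34.8 and 36.4 CPM in the Trpm2-/- mice. Its log2 fold change was -0.77 (SE 0.115, adjusted p = 0.00416, same test). Over the 3 lists together, 41 of 51 genes were tested and 2 were called, against 12.0% of all genes in either direction. A log2 fold change above 0 was found for 28 of the 41, a larger share than the 8155 of all 15816 genes tested. The median was 0.11 over the 41 and 0.02 over all genes tested, and this difference was not tested.

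The genes with the most similar profile to each subunit over the 6 mice were taken by the smallest root-mean-square difference in log2(CPM + 0.5), each gene centred on its own mean, among 12886 genes. For Cyba these were Aph1c, a subunit of gamma-secretase, at a difference of 0.0434, and Tomm5, a part of the mitochondrial import pore, at 0.0494. Their log2 fold changes were -0.82 and -0.76, which follows from their choice by likeness to Cyba and is no separate result. For Nox4 they were Selenop, the selenium carrier, at 0.0549 and Plekhb2 at 0.057, and for Rac1 they were Fntb at 0.029 and Ifngr2 at 0.0296. A near profile for Rac2 was that of Fam72a, at 0.178. For Cybb they were Sparcl1 at 0.191 and Ms4a6b at 0.259, and for Ncf1 they were Pkib at 0.16 and Vav1, an exchange factor of Rac in blood cells, at 0.208. For Ncf4 they were Rin2 at 0.0514 and Asns at 0.067. The differences of the subunits with few reads were the larger ones, apart from Ncf4. These are likenesses over 6 samples and carry no test.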

How the data were processed

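RNA of 6 kidneys was extracted with Trizol and sequenced on an Illumina HiSeq instrument after NEBNext Ultra II library preparation. The count values deposited by the authors are whole numbers of reads per gene without normalization. The FPKM values were computed by the authors from reads, gene length and a library total. The submitters' notes name HISAT2, StringTie and the build mm9 without versions, but the positions of all 8 genes in the tables equal GENCODE M21 on GRCm38, which is used here. Counts were tested in R 4.3.3 with edgeR 4.0.16 (default filterByExpr, TMM, genotype only, two-sided quasi-likelihood test, Benjamini-Hochberg adjustment over 15816 genes). Standard errors and 95% intervals come from the same fit, and floors use 3 counts. Alternatives used DESeq2 1.42.0 and limma 3.58.1. An exact permutation test of 3 against 3 cannot go below p = 0.1. The subunits and all lists were chosen with earlier results of these data known. The genes named are all subunits, all genes of the other oxidase list, called genes of the 2 assembly lists and the 2 nearest profiles. C1qa, C1qc, Cd68, Cd14, Csf3r, Krt20, Sox9, Aqp2, Aqp3, Acta2, Upk3a, Mpo and genes overlapping a subunit were named after their values were seen. One gene that this rule covers and a stretch of coding sequence are not reported here.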

Additional observations from a re-analysis of the deposited data

How the results depend on the processing

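Cyba kept its direction and its call under all 19 alternatives (log2 fold change -0.94 to -0.74, adjusted p from 2.61e-06 to 0.0442), and Rac1 was called under none (0.21 to 0.47, adjusted p from 0.0649 to 0.441). In each alternative 1 subunit passed an adjusted p of 0.05 and 0 the threshold of the methods, and Trio and Prkcz were called in all 19. Noxo1, Sh3pxd2b, Poldip2, Rap1a and Hvcn1 kept their direction in all alternatives run, and the signs of the following genes did not hold. Cybb turned to 0.01 with DESeq2's size factors, 0.02 with upper-quartile factors, 0.10 with total counts only, 0.02 without mitochondrial genes and 0.31 with the replicate block. Ncf1 turned to 0.02 with upper-quartile factors, 0.10 with total counts only, 0.00 without mitochondrial genes, 0.13 with limma-voom, 0.01 on log2(FPKM + 1), 0.09 on log2(FPKM + 0.1) and 0.65 with the replicate block; Sh3pxd2a turned to -0.19 with the block. Leaving out 1 mouse gave -1.40 to 0.46 for Cybb, -0.40 to 0.30 for Ncf1, -0.10 to 0.30 for Ncf4, -0.39 to 0.03 for Nox4, -0.08 to 0.60 for Rac2, -0.37 to 0.07 for Rac3, -0.02 to 0.23 for Cybc1 and -0.12 to 0.26 for Sh3pxd2a. Without both WT mouse 1 and Trpm2-/- mouse 4, chosen after seeing the data, Ncf4 was at -0.04, Rac2 at -0.23 and Rac3 at 0.22. The genes called among all tested were 1902, and 2954 with no filter on low counts. They were 1058 and 1124 on log2(FPKM + 1) and log2(FPKM + 0.1). With the replicate block, where only the mice numbered 1 and 2 enter the genotype comparison, they were 1002. With 1 mouse left out they were 630 (without WT mouse 3) to 2059, and 697 without WT mouse 2. What else moved these counts was not tested. Total counts only moved the median of all genes to 0.12. Replicate numbers 1 and 2 occur in both genotypes but belong to different mice. The correlations of their deviations were 0.05 and -0.01, so the block shares only a number. WT mouse 3 and Trpm2-/- mouse 4 were each alone in their block, so the genotype effect of that fit rests on the mice numbered 1 and 2. The block changed no call of a subunit, but it is not a check on all mice. Counts of 5 to 56 reads limit Cybb, Ncf1, Ncf4 and Rac2.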
